A study of Mus musculus with 6 samples.

Results

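The stria vascularis is the vascularised epithelium in the lateral wall of the cochlea that fills the endolymph with potassium and holds it at a positive voltage, the endocochlear potential. Its marginal cells take up potassium, sodium and chloride from the intrastrial space, return the chloride through channels, and pass the potassium into the endolymph through an apical channel. Its intermediate cells, which are melanocytes, carry the inwardly rectifying potassium channel across which most of the voltage arises. Described here are 8 genes of this machinery: the cotransporter Slc12a2, the chloride channel subunit Bsnd, the potassium channel subunits Kcnq1 and Kcne1, the inward rectifiers Kcnj10, Kcnj16 and Kcnj13, and Esrrb, a nuclear receptor of marginal cells. They were taken by gene symbol from a table of 55401 genes. All 8 had a row, and all 8 were among the 19687 genes that passed the filter on low counts.

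RNA was sequenced from mouse inner ear in 3 libraries of Pou3f4 mutants (Pou3f4 KO, genotype written as Pou3f4y/-) and in 3 of wild-type mice (WT). Pou3f4 is an X-linked transcription factor of the mesenchyme around the ear, and its loss causes deafness with a reduced endocochlear potential in mice. The comparison was made to look for a mechanism of pigmentation in the mutant ear. The labels describe the cell type as all the cells and the cell line as interstitial cells, and they give no age, dissection or extent of the deletion. Sex is given only through the genotype, which is written as for hemizygous males. Nor do they state that each library was a different animal, so the p-values rest on the spread between libraries, which may in part be technical.

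Libraries held 18883922 to 23323953 counts in KO and 18409409 to 19133386 counts in WT. Pou3f4 held 45, 28 and 30 counts in the KO libraries and 1044, 2140 and 2233 counts in the WT libraries, which matched the labels. The inner ear genes Coch, Otos, Otor, Tectb and Myo7a were present in every library, Coch at 203 to 854 CPM (counts divided by the scaled size of the library) and Otos at 72.0 to 354 CPM. KO replicate 1 and WT replicate 3 held Y-linked reads and almost no Xist, and the other 4 libraries held Xist and no Y-linked reads. KO replicates 2 and 3 thus went against the genotype as written, though Pou3f4 was low in both. Of the 8 genes 0 were called (edgeR) without KO replicate 2, without KO replicate 3, or among the 4 libraries with Xist, where 2 of the 8 fold changes were below 0. Those fits also called 0 of all genes tested (20171, 20166 and 19811), so these counts say nothing particular about the 8 genes. The only pair with Y-linked reads was 1 library a group and gave no test. WT replicate 1 stood apart from the other WT libraries for most of the genes described here, so results that turn on it are given with and without it. It was low for most of them, and leaving out such a library lowers fold changes (KO over WT) by itself.

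None of the 8 genes differed between KO and WT ears beyond the spread between libraries. With edgeR's quasi-likelihood test, 0 of 8 passed an adjusted p of 0.05, against 0.396% of all genes tested (0.213% higher and 0.183% lower in KO). DESeq2 and limma-voom also called 0 of 8, against 7.84% and 0.406% of all genes, and 0 of 8 had an unadjusted p under 0.05 with edgeR, against 19.6% of all genes. Fold changes (log2, KO over WT) were below 0 for 5 genes and above 0 for 3, with a median of −0.11, against −0.0070 over all genes tested. Among all genes tested, 51% were below 0. The coefficient of variation of the 8 genes was 5.72% to 25.4% over the KO libraries and 13.8% to 62.1% over the WT libraries. The median over all genes tested was 7.69% in KO and 17.3% in WT, and 7 of the 8 genes lay above it in each group. In bulk tissue, fewer strial cells and less RNA per cell cannot be told apart.

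**Figure D1:**
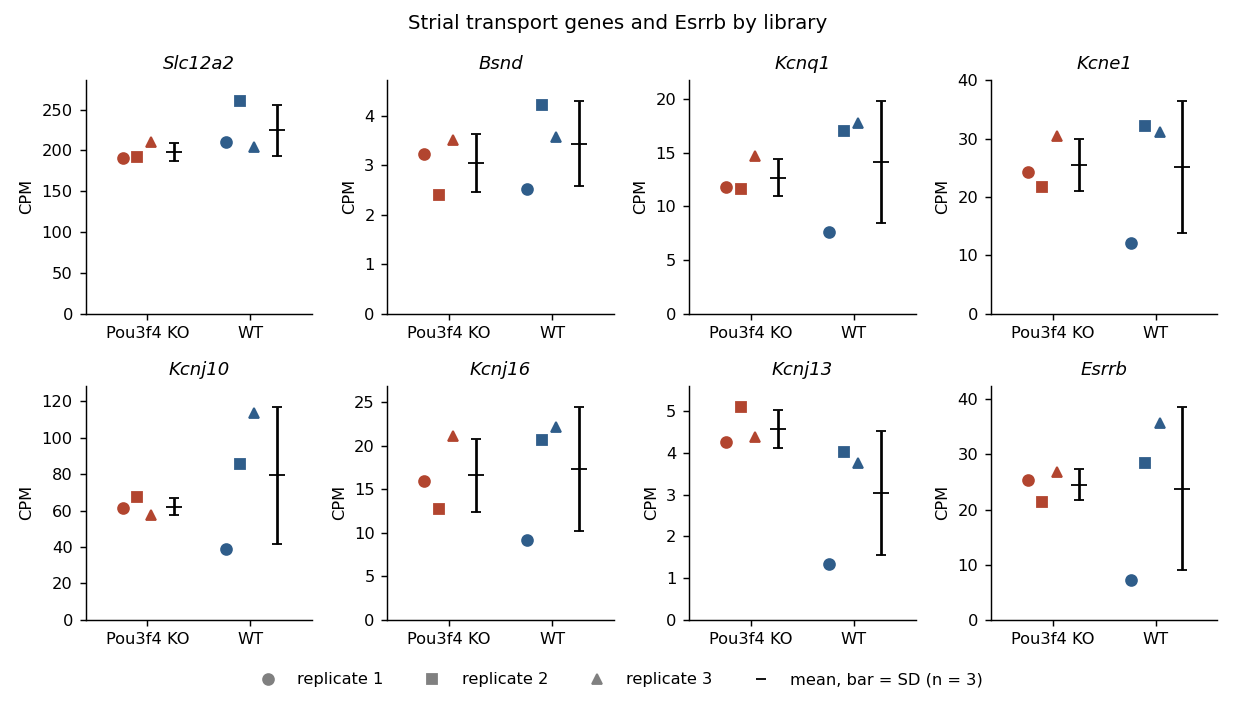
CPM of each gene (vertical axes, from 0) in the 3 Pou3f4 KO and 3 WT libraries, with marker shape for the replicate number and a bar for the mean ± SD. WT replicate 1 was the lowest of the 6 libraries for 6 of the 8 genes, and the KO libraries lay above every WT library only for Kcnj13.

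Uptake of potassium and chloride into marginal cells begins with Slc12a2, the sodium-potassium-chloride cotransporter of their basolateral membrane, which fibrocytes of the spiral ligament also carry. Slc12a2 (ENSMUSG00000024597, mm10 chromosome 18, 57878678 to 57946821, plus strand) had 191, 192 and 211 CPM in KO replicates 1 to 3, against 210, 260 and 204 CPM in WT replicates 1 to 3. Only WT replicate 2 lay clear of the rest, and the groups overlapped. The means were 198 ± 11.3 CPM in KO and 225 ± 31.1 CPM in WT (SD, n = 3 each). The difference, −0.18 on the log2 scale with an SE of 0.12, did not pass the test (adjusted p = 0.424, edgeR). Its 95% interval, −0.46 to 0.10, was the narrowest of the 8 and corresponds to 0.725 to 1.07 times the WT level. Slc12a2 was also the gene with the most reads, 3753 to 4996 counts per library.

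Bsnd encodes barttin, an accessory subunit that chloride channels of marginal cells need to reach the membrane. Bsnd (ENSMUSG00000025418, chromosome 4, 106483456 to 106492283, minus strand) had 3.22, 2.40 and 3.52 CPM in the KO libraries and 2.51, 4.22 and 3.56 CPM in the WT libraries. The lowest value was that of KO replicate 2 and the highest that of WT replicate 2, with the other 4 between them. The log2 fold change was −0.18 (SE 0.26, adjusted p = 0.741, edgeR), with an interval of −0.80 to 0.45. Bsnd had 45 to 81 counts per library, so counting error adds to the spread seen here.

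Kcnq1 and Kcne1 encode the pore-forming and the accessory subunit of the apical channel through which marginal cells, and dark cells of the vestibular organs, secrete potassium. Kcnq1 (ENSMUSG00000009545, chromosome 7, 143106362 to 143427042, plus strand) had 11.8, 11.6 and 14.7 CPM in the KO libraries, against 7.60, 17.0 and 17.8 CPM in the WT libraries. All 3 KO values thus fell between WT replicate 1 and the other WT libraries. The fold change was −0.16 on the log2 scale (SE 0.32, adjusted p = 0.815, edgeR), with an interval of −0.92 to 0.60. Kcne1 (ENSMUSG00000039639, chromosome 16, 92345982 to 92359468, minus strand) had 24.3, 21.7 and 30.4 CPM in the KO libraries, against 12.2, 32.3 and 31.1 CPM in the WT libraries. It lay in the same order, with KO between WT replicate 1 and the other WT libraries, and its fold change was 0.02 (SE 0.36, adjusted p = 0.987, edgeR; interval −0.84 to 0.87). Kcnq1 exons share 3.0% of their length with the antisense transcript Kcnq1ot1, which held 166, 247 and 159 counts in KO and 149, 161 and 205 counts in WT. The sources used here do not give whether reads were counted by strand.

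The ratio of Kcne1 to Kcnq1 CPM was 2.06, 1.88 and 2.08 in the KO libraries and 1.60, 1.89 and 1.75 in the WT libraries. It varied 1.30-fold over the 6 libraries, while Kcne1 itself varied 2.65-fold and Kcnq1 2.34-fold. The ratios of Kcnj16 to Kcne1 and to Kcnq1 varied as little, 1.29-fold and 1.31-fold. The means of the ratio were 2.00 ± 0.110 in KO and 1.75 ± 0.145 in WT, and the groups overlapped.

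Kcnj10 encodes the inward rectifier of intermediate cells that generates the endocochlear potential, and glia and supporting cells of the cochlea also express it. Kcnj10 (ENSMUSG00000044708, chromosome 1, 172341210 to 172374085, plus strand) had 61.6, 67.4 and 57.6 CPM in the KO libraries, against 39.1, 85.4 and 113 CPM in the WT libraries. The KO values differed among themselves by at most 1.17-fold and the WT values by 2.90-fold, with WT replicate 1 below and WT replicates 2 and 3 above every KO library. The log2 fold change over the 6 libraries was −0.35 (SE 0.35, adjusted p = 0.606, edgeR; interval −1.17 to 0.47). Without WT replicate 1 it was −0.69 (SE 0.13, adjusted p = 0.0314, edgeR), and Kcnj10 was then the only one of the 8 genes past the threshold, 12.5% of them against 9.06% of all genes tested in those 5 libraries (5.46% lower and 3.6% higher in KO). The KO mean was 62.6% of the mean of WT replicates 2 and 3. WT replicate 1 was singled out for its low values in these genes, so a lower fold change without it follows from that choice. Without WT replicate 3 the fold change was −0.00095, so its size rested on which WT libraries were kept, and over all 16 alternatives its adjusted p ranged from 0.0314 to 0.999 (edgeR, DESeq2 or limma-voom). The sum of 7 Schwann and satellite glia markers was 3180 to 3631 CPM in KO, 4381 CPM in WT replicate 1, and 8271 and 7325 CPM in WT replicates 2 and 3, so that KO lay below WT replicate 1 for these markers but above it for Kcnj10. The sum of 4 astrocyte markers was 240 to 320 CPM in KO, 193 CPM in WT replicate 1, and 376 and 517 CPM in WT replicates 2 and 3. The part of these cells in the Kcnj10 values was not tested.

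Kcnj16 encodes a subunit that forms mixed channels with the Kcnj10 product and is known from fibrocytes of the spiral ligament. Kcnj16 (ENSMUSG00000051497, chromosome 11, 110968033 to 111027968, plus strand) had 16.0, 12.7 and 21.1 CPM in the KO libraries and 9.16, 20.7 and 22.2 CPM in the WT libraries. It spread more over the KO libraries, 1.66-fold, than any other of the 8 genes, and the groups overlapped. The log2 fold change was −0.06 (SE 0.35, adjusted p = 0.938, edgeR; interval −0.90 to 0.77). The ratio of Kcnj16 to Kcnj10 was 0.260, 0.189 and 0.366 in KO and 0.234, 0.242 and 0.196 in WT. It did not separate the groups.

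Kcnj13 encodes a weakly rectifying potassium channel of transporting epithelia that is also listed among intermediate cell genes. Kcnj13 (ENSMUSG00000079436, chromosome 1, 87386363 to 87394729, minus strand) had 4.27, 5.10 and 4.38 CPM in the KO libraries, against 1.34, 4.01 and 3.76 CPM in the WT libraries. Every KO value lay above every WT value, by a narrow margin over WT replicate 2. It was the only one of the 8 genes without overlap, or 12.5% of them, against 27.7% of all genes tested (15% higher and 12.7% lower in KO). Its log2 fold change, 0.59 with an SE of 0.39 and an interval of −0.34 to 1.52, was the largest in size of the 8 and did not pass the test (adjusted p = 0.441, edgeR). Without WT replicate 1 it was 0.22 (adjusted p = 0.413, edgeR). Kcnj13 had 81 to 117 counts in KO and 24 to 77 counts in WT.

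Kcnj13 lies within Gigyf2, a gene on the opposite strand, and 49.1% of its exon length is shared with exons of 3 of the 23 annotated Gigyf2 transcripts. Its level is uncertain for that reason, because the sources used here do not give how reads over the shared bases were counted. If strand was not used, such reads could have been added to Kcnj13 or left out of both genes. Gigyf2 had 77.2, 68.7 and 75.9 CPM in the KO libraries, against 45.6, 61.5 and 64.0 CPM in the WT libraries. It too had no overlap between the groups, and its fold change of 0.37 on the log2 scale (SE 0.14) did not pass the test (adjusted p = 0.209, edgeR). Kcnj13 amounted to 5.52%, 7.42% and 5.77% of Gigyf2 in the KO libraries and to 2.94%, 6.53% and 5.88% in the WT libraries, so relative to Gigyf2 the groups overlapped. The bases that both share make up 4.4% of the exon length of Gigyf2. Of the choroid plexus, another epithelium that uses Kcnj13, 5 markers summed to 16.0 to 46.9 CPM in KO and 14.9 to 31.2 CPM in WT. The highest sum, in KO replicate 3, was mostly Ttr, at 33.9 CPM there and 3.86 to 15.1 CPM in the other libraries. The part of these cells in the Kcnj13 values was not tested.

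Promoter sequence from RefSeq (build GRCm38.p6) was at hand for 4 of the 8 genes. It covered 1 start of Kcnj10, 1 of Kcnj13, 4 of Kcnj16 and 2 of Esrrb, and the 250 bases before each start were searched on both strands. The motifs were TNAAGGTCA, the element of oestrogen-related receptors (ERR) such as the Esrrb product, the octamer ATGCAAAT that POU factors bind, and the E-box TCATGTG bound by the melanocyte factor Mitf. The matches found lay in different windows and did not overlap. The ERR element was found in 1 of the 8 windows, at the first start of Kcnj16, and in 1.14% of all 32851 windows. The E-box was found in 1, at Kcnj13, and in 3.25% of all windows. The octamer was found in 0 of the 8 windows and in 1.60% of all. The windows with a match are shown 5′ to 3′ on the strand of the gene, with the matched bases, read on the opposite strand of the motif as spelled, in capitals, to show where these motifs lie before a potassium channel of the lateral wall and one listed among intermediate cell genes. The match begins 190 bases before the start of Kcnj16 and 112 bases before that of Kcnj13. A match is a run of letters and does not show binding.
Kcnj16, chr11:110967783-110968032, plus strand: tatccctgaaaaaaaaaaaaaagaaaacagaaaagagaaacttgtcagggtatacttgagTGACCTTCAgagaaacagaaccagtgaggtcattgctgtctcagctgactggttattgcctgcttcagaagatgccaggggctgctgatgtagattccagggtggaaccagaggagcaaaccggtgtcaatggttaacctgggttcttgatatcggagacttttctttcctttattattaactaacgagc
Kcnj13, chr1:87394730-87394979, minus strand: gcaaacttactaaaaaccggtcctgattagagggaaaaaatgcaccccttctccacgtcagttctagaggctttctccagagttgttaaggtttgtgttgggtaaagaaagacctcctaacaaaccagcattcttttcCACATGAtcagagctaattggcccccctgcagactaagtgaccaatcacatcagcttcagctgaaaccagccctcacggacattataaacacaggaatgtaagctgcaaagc

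Ratios of CPM within a library were compared for the 28 pairs among the 8 genes. They did not overlap between KO and WT in 6 pairs, or 21.4%, against 26.6% of all pairs of the 19647 tested genes above 0 in every library. All 6 contained Kcnj13, itself the 1 gene without overlap, which was in 7 pairs. Relative to Kcnj13, 42.5% of the other genes so compared did not overlap. These pairs share the Kcnj13 counts and are not independent. The ratio of Kcnj13 to Kcnj10 was 0.0693, 0.0756 and 0.0761 in the KO libraries, against 0.0343, 0.0470 and 0.0332 in the WT libraries. Its mean was thus 1.93 times the WT mean, and WT replicate 1 lay inside the range of the other WT libraries. The ratio of Kcnj13 to Kcnq1 was 0.360, 0.440 and 0.299 in KO and 0.176, 0.235 and 0.211 in WT. These ratios were examined after the levels were seen and are given as a description.

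**Figure D2:**
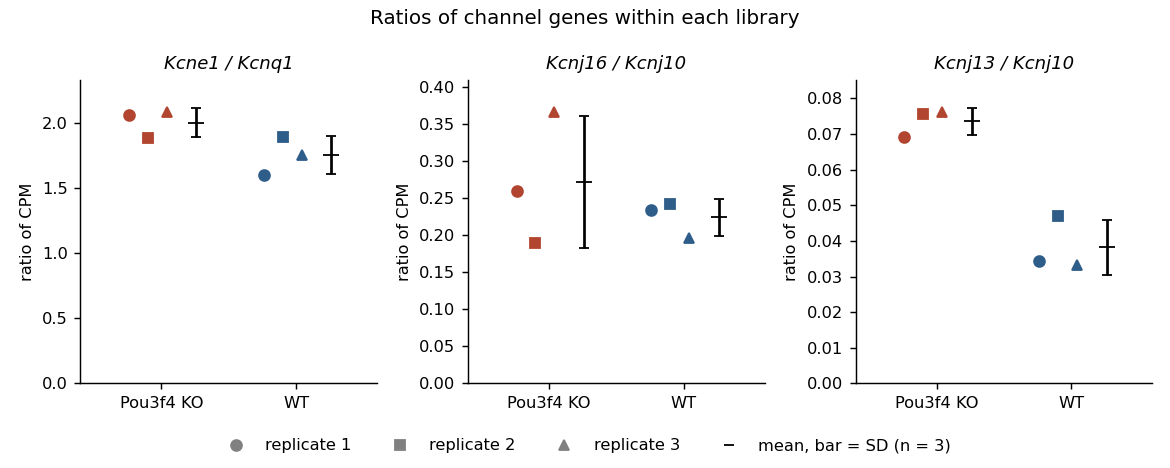
Ratios of CPM within each library for 3 pairs of channel genes (vertical axes, from 0), in Pou3f4 KO and WT, with marker shape for the replicate number and a bar for the mean ± SD. Kcnj13 relative to Kcnj10 was 0.0693 to 0.0761 in KO and 0.0332 to 0.0470 in WT, while the other 2 ratios overlapped between the groups.

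Esrrb encodes an orphan nuclear receptor of the ERR family that is required for the identity of marginal cells and for their expression of ion transport genes. Esrrb (ENSMUSG00000021255, chromosome 12, 86361117 to 86521628, plus strand) had 25.3, 21.4 and 26.9 CPM in the KO libraries, against 7.26, 28.4 and 35.7 CPM in the WT libraries. The KO values lay between WT replicate 1 and the other WT libraries, as those of Kcnq1, Kcne1 and Kcnj10 did. The log2 fold change was 0.04 (SE 0.51, adjusted p = 0.975, edgeR). Its interval of −1.16 to 1.25, or 0.447 to 2.37 times the WT level, was the widest of the 8. Without WT replicate 1 the fold change was −0.40 (unadjusted p = 0.0272 and adjusted p = 0.124, edgeR), and the KO mean was 76.5% of the mean of WT replicates 2 and 3.

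**Figure D3:**
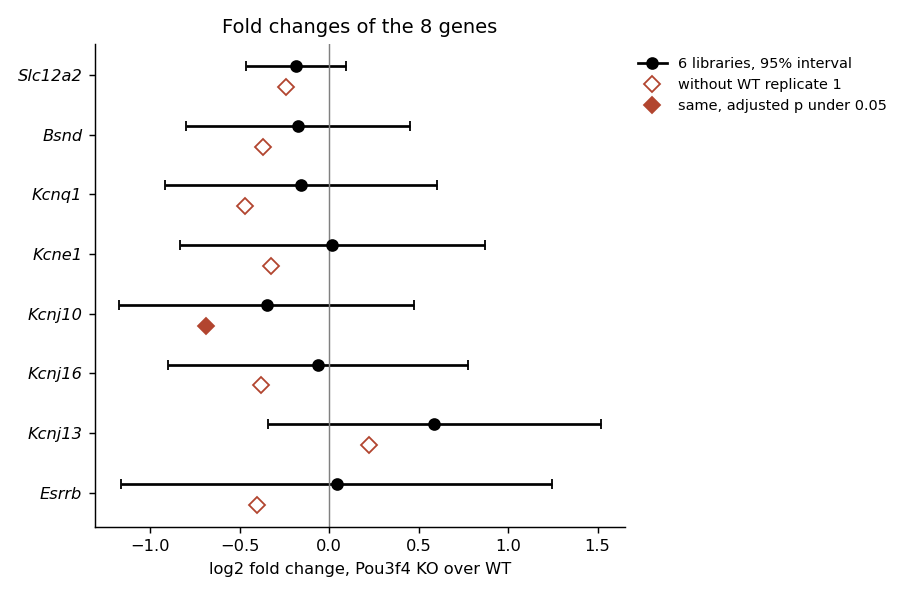
Log2 fold change of each gene, Pou3f4 KO over WT, with its 95% interval over the 6 libraries (circles) and without WT replicate 1 (diamonds, filled where the adjusted p was under 0.05). Every interval spans 0, and without WT replicate 1 the values of 7 genes lie below 0, from −0.24 for Slc12a2 to −0.69 for Kcnj10. That library was low for most of these genes, so leaving it out lowers their values by itself.

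Levels were compared between genes as CPM per kilobase of annotated exons, averaged over the 6 libraries. Slc12a2 was highest at 19.3 CPM per kb, followed by Kcnj10 at 13.1 and Kcne1 at 7.89 CPM per kb. Kcnj16 at 4.31, Esrrb at 3.99, Kcnq1 at 3.28 and Kcnj13 at 3.00 CPM per kb came next, and Bsnd was lowest at 1.18 CPM per kb. The ranges over libraries of all neighbours in this order overlapped. Within libraries, Kcnj10 lay above Kcne1, Kcne1 above Kcnj16 and Kcnj13 above Bsnd in 6 of 6, while Kcnj16 lay above Esrrb in only 3 of 6. With the longest coding transcript as the length, the levels of Slc12a2 and Kcnj10 no longer overlapped (32.4 and 13.1 CPM per kb) and Esrrb came before Kcnj16. The accessory subunit Kcne1 stood above its pore-forming partner Kcnq1 per length with either choice of length.

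WT replicate 1 set the spread of the WT group for most of these genes. It was the lowest of the 6 libraries for 6 of the 8 genes, against 29.6% of all genes tested. Relative to the mean of WT replicates 2 and 3, WT replicate 1 held 22.7% of Esrrb, 34.5% of Kcnj13, 38.4% of Kcne1, 39.4% of Kcnj10, 42.8% of Kcnj16 and 43.6% of Kcnq1. The other 2 genes were nearer to the WT level, Bsnd at 64.6% and Slc12a2 at 90.3%. Of the 18155 genes with a WT mean of at least 1 CPM, 8.88% stood at 55% or less by this measure. Only 1.13% of those genes were lower than Esrrb by this measure, and 4.73% were lower than Kcnq1. Without WT replicate 1, the fold changes of 7 of the 8 genes were below 0, with a median of −0.38. Over all genes the median was −0.0035, and 50.5% were below 0. WT replicate 1 was singled out because it was low for most of the 8 genes, so this shift follows in part from that choice. The 18155 genes had a median of 100% by the measure above and were not so chosen. Adjusted p-values (edgeR) were then 0.0796 for Kcnq1 (−0.47), 0.185 for Kcne1 (−0.33), 0.265 for Kcnj16 (−0.38), 0.201 for Slc12a2 (−0.24) and 0.313 for Bsnd (−0.37). Kcnj13, at 118% of the mean of WT replicates 2 and 3 in KO, was the 1 gene still above 0.

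**Figure D4:**
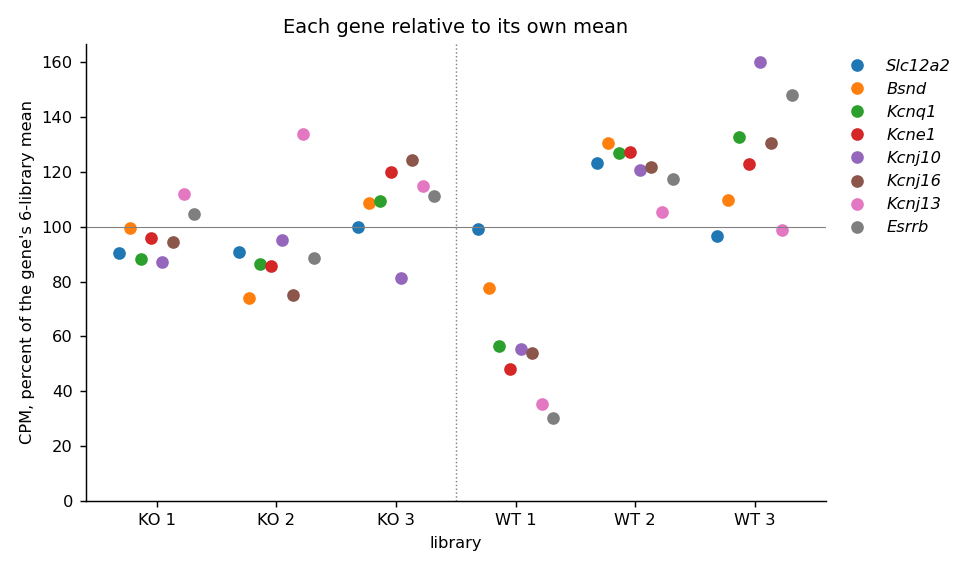
CPM of each gene in each library as a percentage of its own mean over the 6 libraries (vertical axis), with the Pou3f4 KO libraries to the left of the dotted line and the WT libraries to the right. In WT replicate 1 Esrrb, Kcnj13, Kcne1, Kcnj16, Kcnj10 and Kcnq1 lie low together, with Bsnd nearer to 100% and Slc12a2 close to it.

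Marker sums of several other cell types were also low in WT replicate 1. As a share of the mean of WT replicates 2 and 3, it held 29.3% of red cell markers (5 genes), 48.0% of hair cell markers (5), 50.1% of spiral ligament fibrocyte markers (4), 52.2% of choroid plexus markers (5), 56.2% of Schwann and satellite glia markers (7), 43.1% of astrocyte markers (4) and 67.6% of basal cell markers (3). Single genes weighed on the smaller lists: the choroid plexus sum was led by Ttr (3.86 CPM in WT replicate 1, 10.8 and 15.1 CPM in the other WT libraries), and the basal sum joined Cldn11 (57.7 CPM in WT replicate 1, 159 and 131 CPM in the others) with Tjp1 (158 CPM in WT replicate 1, 166 and 165 CPM in the others). It held 89.4% of spindle and root cell markers (5), 94.2% of intermediate cell markers (8), and 108% of osteoblast markers (5). The intermediate sum was led by Nrp2 (376 CPM in WT replicate 1, 377 and 389 CPM in the others). Dct had 36.5, 65.6 and 66.5 CPM in WT replicates 1 to 3. Tyr, Mitf and Pax3 were also lowest in WT replicate 1 among the WT libraries, and Met, Cd44 and Tyrp1 were not. Of the spindle and root list, Epyc (204, 347 and 324 CPM) and P2rx2 were lowest there. Anxa1 (213, 156 and 147.5 CPM) and Lgr5 were highest there, and Slc26a4 lay between. Skeletal muscle markers (7) did not follow this order, at 4621 CPM in WT replicate 1, 101 CPM in WT replicate 2 and 7987 CPM in WT replicate 3, and at 15.5 to 614 CPM in KO. None of these markers was at 0 in all libraries. Which of these differences goes with the low level of the transport genes was not tested.

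The same sums were compared between the groups. Fibrocyte markers summed to 889 to 902 CPM in KO and 1289 to 2650 CPM in WT, and 2 of 4 fell, the inner ear protein Otor (130.6 ± 6.39 CPM in KO and 349 ± 63.2 CPM in WT, adjusted p = 0.0387, edgeR) and the carbonic anhydrase Car3. Of the 7 Schwann and satellite glia markers, summed above, 3 fell, among them the myelin genes Pmp22 (471 ± 41.8 CPM in KO and 1127 ± 225 CPM in WT, adjusted p = 0.049, edgeR) and Prx. Osteoblast markers summed to 42690 to 48630 CPM in KO and 23070 to 26780 CPM in WT, and 2 of 5 rose, Spp1 and Col1a1. Without WT replicate 1 the fibrocyte list had 4 of 4 genes lower, the Schwann and satellite glia list 6 of 7, the red cell list 5 of 5, the astrocyte list 1 of 4 and the basal cell list 1 of 3 (edgeR). Called higher there were 2 of the 8 intermediate cell markers and 2 of the 5 osteoblast markers. In that fit 5.46% of all genes tested were called lower and 3.6% higher. Intermediate cell markers summed to 874 to 1014 CPM in KO and 632 to 676 CPM in WT, a sum made up mostly of Nrp2 (583 ± 59.5 CPM in KO and 381 ± 6.98 CPM in WT) and Cd44. None of the 8 intermediate cell markers passed the test (edgeR, 2 at an unadjusted p under 0.05; DESeq2 2, Nrp2 and Cd44; limma-voom 0). DESeq2 called 7.84% of all the genes it tested. The melanin enzyme Dct, chosen after its values were seen, had 67.4, 66.9 and 81.1 CPM in KO and 36.5, 65.6 and 66.5 CPM in WT, so that WT replicate 1 was low for it as well. Basal cell markers summed to 328 to 345 CPM in KO and 230 to 354 CPM in WT, and spindle and root cell markers to 437 to 515 CPM in KO and 466 to 540 CPM in WT. Hair cell markers summed to 38.2 to 49.4 CPM in KO and 23.3 to 55.5 CPM in WT, and red cell markers to 1864 to 2909 CPM in KO and 1964 to 7149 CPM in WT. In the basal, spindle and root, choroid plexus, astrocyte, muscle, hair cell and red cell lists, edgeR called 0 genes (1, 1, 0, 0, 1, 0 and 2 at an unadjusted p under 0.05), limma-voom 0, and DESeq2 1, in the red cell list.

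The 8 genes were compared with each other by the root-mean-square difference of log2 CPM over the 6 libraries after each gene was centred on its own mean, a smaller value meaning a closer course. Of the 28 pairs, Kcne1 and Kcnj16 were closest (0.116), followed by Kcnq1 with Kcnj16 (0.124) and Kcnq1 with Kcne1 (0.130). Kcnq1, Kcne1 and Kcnj16 were thus nearest to each other, and Slc12a2 and Bsnd came next (0.211). The measure includes WT replicate 1, which held 43.6% of Kcnq1, 38.4% of Kcne1 and 42.8% of Kcnj16 relative to WT replicates 2 and 3. For Slc12a2 and Bsnd it held 90.3% and 64.6%. How far this library sets the order of pairs was not tested. Slc12a2 and Esrrb were farthest apart (0.737). Kcnj10 was closer to Kcnq1 (0.215) than to Kcnj16 (0.313), the gene of its channel partner.

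The same measure was taken against 12438 other protein-coding genes with a mean of at least 5 CPM. Here too it includes WT replicate 1, and a close course does not show a shared cell type. Nearest to Kcne1 was Lrp2 (0.0411), which encodes megalin, an endocytic receptor that marginal cells carry. Lrp2 had 44.0, 39.4 and 53.4 CPM in KO and 22.1, 54.2 and 56.7 CPM in WT, and was nearest to Kcnj16 as well (0.113). The next genes were Ampd3 for Kcne1 (0.0592) and the basement membrane collagen Col4a3 for Kcnj16 (0.126). The nearest genes to Kcnq1 were the carboxylesterase Ces2g (0.0701) and the haem synthesis enzyme Alad (0.0752). Nearest to Kcnj10 were Anks1b (0.0901) and Rims2 (0.107), a protein of the presynaptic active zone. Kcnj13 was nearest to Fam111a (0.0621) and Gpr183 (0.0937), a receptor of immune cells, and Esrrb to the neutrophil granule protein Lcn2 (0.0914) and Rab44 (0.112). Bsnd was nearest to Clic6 (0.0805), itself 1 of the choroid plexus markers, and to the epithelial serine protease Prss8 (0.100). The nearest to Slc12a2 were Cmpk2 (0.0306) and Glrx5 (0.0332), but Slc12a2 itself departed from its own mean by only 0.150, against 0.279 to 0.737 for the other 7 genes.

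Other genes of the machinery were described as lists beside the 8 genes, and no set test was made. To set beside the DESeq2 calls in these lists, DESeq2 called 7.84% of all the genes it tested. Of 6 further marginal cell genes, 0 passed the test (edgeR, 1 at an unadjusted p under 0.05; DESeq2 1, Wnk2; limma-voom 0), with a median log2 fold change of 0.05. Atp1b2, a subunit of the sodium pump, stood at 142 ± 6.88 CPM in KO and 182 ± 72.7 CPM in WT (SD, n = 3 each). Wnk2, a kinase that regulates cation-chloride cotransporters, was named after its values were seen. It had 15.7, 16.1 and 15.8 CPM in the KO libraries, against 25.2, 25.1 and 40.6 CPM in the WT libraries. WT replicates 1 and 2 were alike for it and every KO library lay lower. Its log2 fold change of −0.93 (SE 0.20) had an adjusted p of 0.105 with edgeR, 0.00193 with DESeq2 and 0.0274 with edgeR without WT replicate 1. Of this list, 2 genes were called lower without WT replicate 1, Wnk2 and Atp1b2, against 5.46% of all genes tested in that fit.

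Of 12 partners in cation-chloride cotransport and chloride conductance, 0 passed (edgeR, 1 at an unadjusted p under 0.05; DESeq2 and limma-voom 0), with a median of −0.04. The kinase Wnk1, which acts upstream of Slc12a2, stood at 236 ± 11.6 CPM in KO and 226 ± 38.4 CPM in WT, and the kinase cofactor Cab39 at 160 ± 8.92 CPM in KO and 174 ± 24.6 CPM in WT. Stk39, the kinase that phosphorylates Slc12a2 and was named after its values were seen, had 76.1, 76.9 and 73.6 CPM in KO and 68.8, 107 and 96.5 CPM in WT. It was the 1 gene of this list called without WT replicate 1, lower by −0.44 (adjusted p = 0.0188, edgeR). In that fit 9.06% of all genes tested were called.

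The relatives of the potassium channel subunits are described next, and genes of these lists other than Kcne4, Kcnj8 and Kcnj2 were named after their values were seen. Of 7 other KCNQ and KCNE subunits, 0 passed (edgeR, 3 at an unadjusted p under 0.05; DESeq2 2; limma-voom 0), with a median of −0.43. Kcne4 stood at 22.5 ± 0.450 CPM in KO and 21.3 ± 7.53 CPM in WT. Without WT replicate 1, 4 of the 7 passed, 3 of them lower, against 9.06% of all genes tested in that fit (5.46% lower and 3.6% higher). The 1 higher was Kcne4 (0.39, adjusted p = 0.0469, edgeR). Over the 6 libraries, 19.6% of all genes tested had an unadjusted p under 0.05 (edgeR), and DESeq2 called 7.84% of the genes it tested. Of the 12 other inward rectifiers 9 passed the filter on low counts. Kcnj4 and Kcnj6 lay below it, and Kcnj1 had 0 counts in every library, which allows up to 0.131 to 0.168 CPM. Of the 9, 0 passed the test (edgeR, 4 at an unadjusted p under 0.05; DESeq2 3, Kcnj8, Kcnj11 and Kcnj12; limma-voom 0). The fold changes of 7 of the 9 were below 0, against 51% of all genes tested, with a median of −0.42. Without WT replicate 1, 3 were called lower, against 5.46% of all genes tested in that fit. Kcnj8, a channel of pericytes and smooth muscle, had 8.27, 8.19 and 8.65 CPM in KO and 26.9, 12.1 and 13.5 CPM in WT, with WT replicate 1 here the highest library (log2 fold change −1.06, adjusted p = 0.161 with edgeR and 0.0188 with DESeq2). Kcnj2 stood at 10.5 ± 0.798 CPM in KO and 10.7 ± 4.15 CPM in WT.

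Of 7 ERR family genes and coactivators, 0 passed (edgeR, 2 at an unadjusted p under 0.05; DESeq2 1, Ppargc1a; limma-voom 0), with a median of −0.40. The coactivators Ncoa2 and Ncoa3 stood at 71.4 ± 2.91 and 49.0 ± 3.88 CPM in KO, against 69.0 ± 4.16 and 45.3 ± 1.75 CPM in WT. Esrrg, the relative of Esrrb, was named after its values were seen and had 27.9, 23.3 and 18.6 CPM in KO and 17.9, 36.3 and 38.1 CPM in WT. Ppargc1a, a coactivator of ERR factors that muscle also expresses, was named likewise and had 12.1, 14.2 and 11.2 CPM in KO and 36.9, 20.7 and 22.3 CPM in WT. Its highest value was in WT replicate 1, where Esrrb was lowest.

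**Figure D5:**
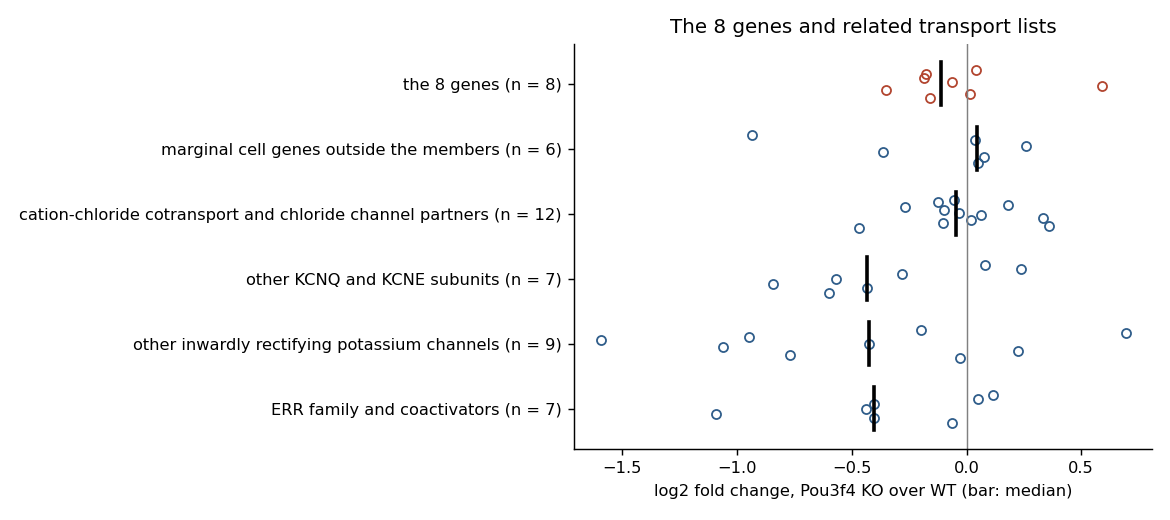
Log2 fold change, Pou3f4 KO over WT, of each tested gene (circles) in the set of 8 genes and in the 5 related lists, with the median of each as a bar. The median was −0.11 for the 8 genes and lay between −0.43 and 0.05 for the lists, and 0 genes in any of them passed an adjusted p of 0.05 with edgeR.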

How the data were processed

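The authors deposited whole-number read counts per gene, not normalised, with symbols and mm10 coordinates. Per the submitters' processing notes, Trimmomatic, HISAT2, Cufflinks and HTSeq were used. The sources used here give no versions, annotation or strand setting. Of the gene identifiers, 55141 were found in GENCODE M21 (same build), which gave exon lengths and overlaps. Replicates are the numbered libraries of the labels, and no pairing is stated.

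Counts were tested with edgeR 4.0.16 (R 4.3.3): filterByExpr at a minimum count of 10, TMM scaling, and the quasi-likelihood F test with genotype alone, with p-values adjusted over all 19687 genes (Benjamini-Hochberg, 0.05). CPM are edgeR's, on the scaled library sizes. SE is the fold change over the square root of F, and 95% intervals use the degrees of freedom of that test. Log2 CPM used a prior count of 2. A count of 0 allows 3 counts, as counting error only. The fit was run on simulated data with the same dispersion for all genes and no outlying library. These data differ in both, so that run does not bear on the effect of WT replicate 1.

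Named were the 8 genes, Pou3f4, the 2 genes nearest to each, and of each pathway list the genes called (at most 4) or else the 2 with the highest mean, with exceptions stated. Marker genes called by edgeR were named as well. The genes and the 5 pathway and 11 marker lists were chosen with earlier results of these data known. Alternatives used DESeq2 1.42.0 and limma 3.58.1. Some genes of these lists are not reported here.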

Additional observations from a re-analysis of the deposited data

How the results depend on the processing

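Over 16 alternatives to the processing, the number of the 8 genes called stayed at 0 in 15. Over fits without 1 library each, it was 0 to 1, the 1 being Kcnj10 without WT replicate 1. The number of genes called over all genes tested, 78 (42 higher, 36 lower), was 1509 with DESeq2, 1 with the replicate block, 0 with Xist presence as a covariate (3185 at an unadjusted p under 0.05, edgeR) and 0 in the 4 libraries with Xist alone (1451 at an unadjusted p under 0.05), the last chosen after seeing the data. Without 1 library each it ranged from 0 to 1814. It was 1814 without WT replicate 1, 760 without WT replicate 2 and 0 without WT replicate 3 or any KO library (2087 to 3364 at an unadjusted p under 0.05, edgeR). Same-numbered libraries did not deviate together (correlations of −0.131, −0.295 and −0.191 over genes), so the numbers were not taken as pairs. The replicate block turned Kcnj16 to 0.0039. In the 4 libraries with Xist, Kcnq1 was 0.091, Kcnj10 0.0069 and Kcnj16 0.18.

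Leaving out 1 library each, log2 fold changes ranged from −0.47 to 0.042 for Kcnq1, −0.33 to 0.24 for Kcne1, −0.69 to −0.00095 for Kcnj10, 0.22 to 0.84 for Kcnj13, −0.38 to 0.15 for Kcnj16, −0.25 to −0.06 for Slc12a2, −0.37 to 0.00067 for Bsnd and −0.40 to 0.46 for Esrrb. Kcnj13 and Slc12a2 kept their direction in all 16 alternatives. The cause of the other changes of sign was not tested.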
